A study of Rattus norvegicus with 51 samples.

Results

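Heat shock proteins are molecular chaperones that bind unfolded or partly folded proteins, and cochaperones steer them to their clients. The 9 genes described here were chosen by name from 18602 genes that the arrays measured, each as the row of the deposited annotated table whose gene symbol equals the member. That choice was made with earlier results of these data known. Where a gene had several probe sets, the one with the highest mean was taken. In background knowledge, 6 members are known as stress-inducible: Hspa1b (the inducible cytosolic Hsp70), Dnajb1 (an Hsp40 J-domain cochaperone of Hsp70), Hsph1 (Hsp110, a nucleotide exchange factor for Hsp70), Bag3 (an Hsp70 cochaperone in chaperone-assisted selective autophagy), Hsp90aa1 (the inducible Hsp90) and Hspb1 (Hsp27, a small heat shock protein). The other 3 are known for steady, high expression in heart muscle: Hspa8 (Hsc70, the constitutive Hsp70), Hspb7 (the cardiovascular small heat shock protein, which binds filamin C) and Cryab (alpha B-crystallin, which binds desmin and other filaments). They are called constitutive here, which does not mean that stress cannot also induce them.

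Engineered tissues of neonatal rat ventricular myocytes from Sprague-Dawley rats were grown on silicone membranes coated with fibronectin. The coat was either even, which gives randomly oriented (isotropic) tissue, or printed in lines, which gives aligned (anisotropic) tissue. The 51 arrays fell into 16 groups. At each of 6, 24 and 96 h there were 5 groups of 3 arrays: anisotropic tissue stretched cyclically along the cells (longitudinal), anisotropic tissue stretched across them (transverse), isotropic tissue stretched, and unstretched tissue of both layouts. The 0 h group held 6 arrays of unstretched isotropic tissue, taken after 1 h of static culture. All tissues shared the same medium, with 10% fetal bovine serum for the first 48 h and 2% after that, and carried no transgene or drug. Cells came from 6 numbered harvests. Each harvest gave 1 array at 0 h, and the 3 arrays of every later group came from 3 different harvests. The amplitude and rate of stretch and the age of the pups are not given in the sources used here. These are primary cultures that still hold other cells of the heart: all 6 fibroblast markers and all 7 macrophage markers listed were measured, and their levels moved with time and stretch as given beside the results.

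Values are robust multi-array average (RMA) signals on the log2 scale, so a difference of 1 is a 2-fold change in signal. Array medians lay between 5.31 and 5.43. All 8 cardiomyocyte markers had mean signals between 9.47 (Ryr2) and 12.67 (Myl3) over the 51 arrays, in accord with the labelled cell type. The fibroblast markers Col1a1 (11.67) and Col1a2 (11.33) also lay in that range, and the other markers of other cells lay below it. RMA gives no zeros and no detection calls, so a marker at a low value here cannot be called absent. On their whole expression profile, 2 arrays stood apart from their labels. On an axis set to 0 at the mean of unstretched anisotropic tissue at 24 h and to 1 at 96 h, replicate 1 of stretched isotropic tissue at 24 h lay at 0.90, against 0.07 and 0.06 for the other replicates of its group. Replicate 1 of unstretched isotropic tissue at 96 h lay at 0.22, against 1.03 and 1.01 for its group. Both came from harvest 1. The authors' deposited log2 changes equalled differences of group means in 13 of 15 columns as labelled, and in 15 with these 2 arrays exchanged. Each column was set against its nearest group, whatever its header. A column whose header names 96 h equalled unstretched isotropic tissue at 24 h against 0 h. No fit was made with the labels of the 2 apart arrays exchanged. Tests are given for all 51 arrays as labelled, and values from the fit with those 2 arrays left out are given where a call or a value moved. Levels of markers and the patterns most like each member are as labelled. Tests were made with limma on all arrays and all 18602 genes, each group having its own mean and harvest entering as a further term. A gene was called at a Benjamini-Hochberg adjusted p of at most 0.05.

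The stress response is driven by heat shock factor 1, which on activation forms trimers and binds heat shock elements, arrays of GAA units in alternating orientation, in the promoters of its target genes. The promoters of members show how such elements are spread over inducible and constitutive genes. RefSeq's promoter table (build GRCr8) held 6 of the 9 members. Each sequence below is the 250 bases before the start site, 5′ to 3′ on the gene's strand, with matches to GAANNTTC, TTCNNGAA or the 3-unit forms GAANNTTCNNGAA and TTCNNGAANNTTC in capitals. They are shown because they cover the range among members: 3 inducible genes, a constitutive gene with the longer form, and a constitutive gene without a match.
Dnajb1: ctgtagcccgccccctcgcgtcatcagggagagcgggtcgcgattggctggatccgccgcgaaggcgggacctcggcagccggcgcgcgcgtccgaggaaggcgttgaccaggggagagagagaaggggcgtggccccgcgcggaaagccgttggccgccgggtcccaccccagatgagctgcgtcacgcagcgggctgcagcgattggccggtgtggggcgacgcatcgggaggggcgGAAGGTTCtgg
Hsph1: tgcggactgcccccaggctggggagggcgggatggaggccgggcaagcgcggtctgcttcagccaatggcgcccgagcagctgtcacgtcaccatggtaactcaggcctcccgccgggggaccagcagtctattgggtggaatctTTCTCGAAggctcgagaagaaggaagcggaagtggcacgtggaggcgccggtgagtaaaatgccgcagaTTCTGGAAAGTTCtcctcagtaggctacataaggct
Bag3: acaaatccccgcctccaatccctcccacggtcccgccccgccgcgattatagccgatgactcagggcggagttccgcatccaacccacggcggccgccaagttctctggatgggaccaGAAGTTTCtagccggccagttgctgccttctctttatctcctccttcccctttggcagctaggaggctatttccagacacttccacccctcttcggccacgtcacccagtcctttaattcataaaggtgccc
Hspa8: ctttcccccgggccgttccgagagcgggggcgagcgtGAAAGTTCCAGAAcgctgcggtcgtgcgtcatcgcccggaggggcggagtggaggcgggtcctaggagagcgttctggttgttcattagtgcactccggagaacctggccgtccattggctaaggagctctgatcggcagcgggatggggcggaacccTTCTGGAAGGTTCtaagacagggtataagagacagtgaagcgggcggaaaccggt
Hspb7: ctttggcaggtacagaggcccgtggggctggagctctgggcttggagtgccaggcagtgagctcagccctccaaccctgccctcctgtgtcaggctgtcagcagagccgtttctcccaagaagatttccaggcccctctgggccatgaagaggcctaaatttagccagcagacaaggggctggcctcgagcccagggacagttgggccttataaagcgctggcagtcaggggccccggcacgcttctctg

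The Dnajb1 window lies at chr19:41431142-41431391 on the minus strand, and its single match, GAAGGTTC, ends 4 bases before the start site (positions -11 to -4). The Hsph1 window lies at chr12:10427118-10427367 on the plus strand. It holds TTCTCGAA at -105 to -98 and the 3-unit TTCTGGAAAGTTC at -36 to -24, which contains both pair motifs. The Bag3 window, at chr1:192533210-192533459 on the plus strand, holds GAAGTTTC at -132 to -125. The Hspa8 window, at chr8:50080264-50080513 on the plus strand, holds 2 matches of 3 units, GAAAGTTCCAGAA at -213 to -201 and TTCTGGAAGGTTC at -55 to -43. Hspb1, on chromosome 12 and not printed, had 2 pairs, GAAGTTTC at -129 to -122 and GAACCTTC at -109 to -102. The Hspb7 window, at chr5:159010509-159010758 on the plus strand, held none of these letters. All motifs read the same on both strands or were searched in both forms. Among the 33469 promoters of the table, 13.5% held at least 1 pair and 0.663% held 3 units in a window of the same length, against 5 and 2 of the 6 members with a window. A match is a description of the letters and not a measured binding site. Of the 3 matches of 3 units, 2 lay in the constitutive Hspa8 and 1 in the inducible Hsph1. Hspa1b, Hsp90aa1 and Cryab have no entry in the table.

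**Figure D1:**
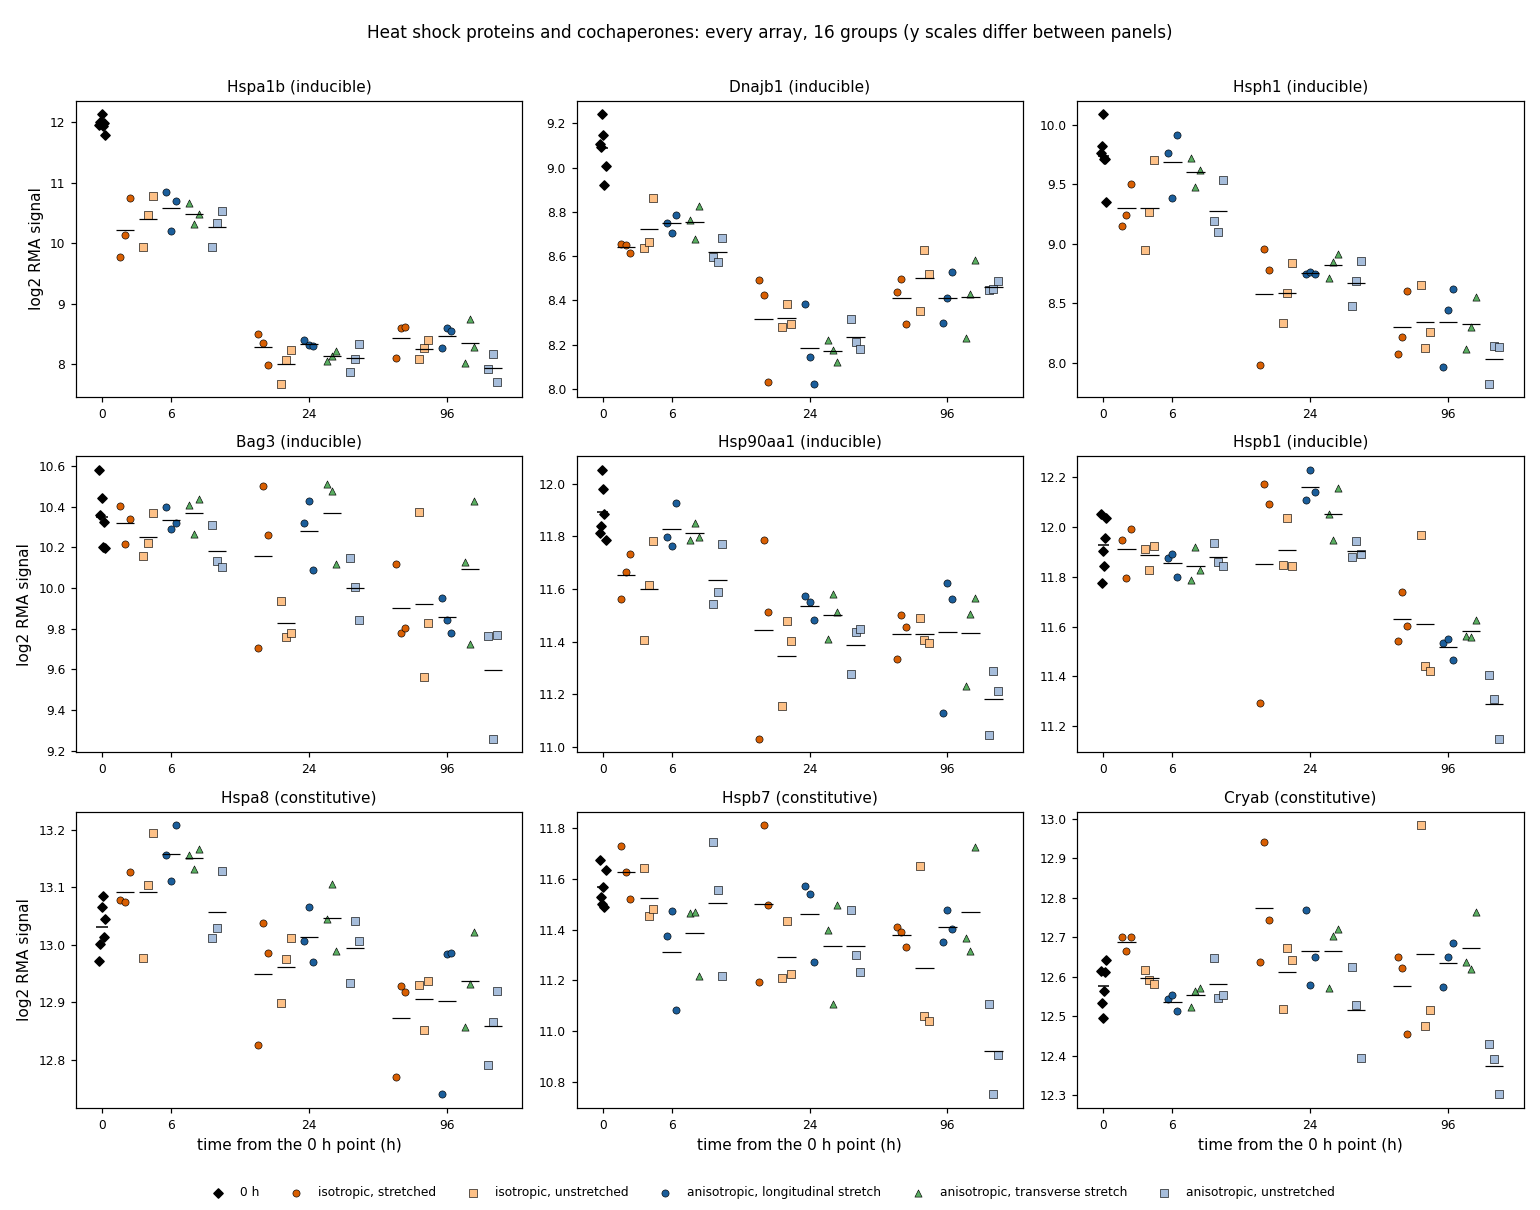
RMA signal (log2, vertical axes, each with its own range) of the 9 members on each of the 51 arrays, against time from the 0 h point in h. Each point is 1 array, black diamonds are 0 h, the 5 coloured markers are layouts and stretch states, dashes are group means, and the times are spaced for legibility and not to scale. Hspa1b lies between 11.80 and 12.13 on the 0 h arrays and between 7.68 and 8.50 on the 24 h arrays, while Cryab lies between 12.30 and 12.98 on all arrays.

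Across the 16 groups, the members differed widely in how much they varied. The SD of the 16 group means, after adjustment for harvest, was 1.25 log2 units for Hspa1b, larger than in 99.8% of all genes. It was 0.52 for Hsph1 (larger than in 95.7%), 0.25 for Bag3 (79.7%) and 0.25 for Dnajb1 (79.0%). Hspb1 followed at 0.21 (73.5%), then Hsp90aa1 at 0.17 (63.4%) and Hspb7 at 0.17 (62.9%). Cryab at 0.09 (34.1%) and Hspa8 at 0.08 (31.9%) varied less than most genes. The constitutive Hspb7 thus had about the SD of the inducible Hsp90aa1. With the 2 apart arrays left out, the SD was 1.26 for Hspa1b, 0.54 for Hsph1, 0.28 for Bag3, 0.25 for Dnajb1 and for Hspb1, 0.20 for Hspb7, 0.18 for Hsp90aa1, 0.10 for Cryab and 0.09 for Hspa8. The 4 members that were highest at 0 h were Hspa1b, Dnajb1, Hsph1 and Hsp90aa1. The lowest group mean of 8 members lay in unstretched anisotropic tissue at 96 h, the exception being Dnajb1, lowest in transversely stretched tissue at 24 h. When the 16 groups were ranked, most neighbours differed by less than the larger of their SDs. Of 15 such gaps, 2 were larger than the SD for Hspa1b: the step of 1.38 from 0 h to the next group and the step of 1.76 between the 6 h groups and the rest. Hspb1 had 5 such gaps, Dnajb1, Hsph1, Hsp90aa1, Hspa8 and Cryab had 1 each, and Bag3 and Hspb7 had none.

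The first comparison asks how the members changed with time in unstretched culture, for which the 0 h group on isotropic tissue is the baseline. The comparisons at 6, 24 and 96 h share the same 6 arrays at 0 h. At 6 h, 4 of the 9 members were lower and none higher than at 0 h, all 4 of them inducible genes, while 31.7% of all genes passed the test and 12.5% were lower. At 24 h and at 96 h, 6 members were lower and none higher, against 36.8% of all genes called at 24 h (16.1% lower) and 37.9% at 96 h (16.1% lower). The median change of the 9 members was -0.16 at 6 h, -0.50 at 24 h and -0.42 at 96 h, beside -0.01, 0.02 and 0.04 for all genes tested. Of the 6 inducible members, 4, 5 and 5 were lower at 6, 24 and 96 h. Of the 3 constitutive members, 0, 1 and 1 were lower.

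Hspa1b, the inducible Hsp70, moved farthest. Its signals were 9.95, 10.47 and 10.78 in unstretched isotropic tissue at 6 h and 7.68, 8.08 and 8.24 at 24 h. At 96 h they were 8.09, 8.27 and 8.41, against 11.95, 12.01, 12.13, 11.94, 12.00 and 11.80 at 0 h. No later array overlapped the 0 h arrays, in any layout or stretch state, and the 6 h arrays lay between the 0 h and the later ones. The change against 0 h was -1.59 ± 0.14 (log2 ± SE, limma adjusted p = 1.34e-10) at 6 h, -3.88 ± 0.14 (limma adjusted p = 3.55e-21) at 24 h and -3.73 ± 0.14 (limma adjusted p = 9.42e-21) at 96 h. The 24 h value is a 14.7-fold lower signal. With the 2 apart arrays left out, the change at 96 h was -3.79. The array holds a second Hspa1b probe set, and over both the plain mean difference ran between -3.97 and -2.86 at 24 h, so the direction held while the size depended on the probe set. Rat Hspa1a and Hspa1b are near-identical copies, and the signal may include both.

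Dnajb1, the Hsp40 partner that stimulates Hsp70's ATPase, fell at all 3 times. It measured 8.64, 8.66 and 8.86 at 6 h, 8.28, 8.38 and 8.29 at 24 h and 8.35, 8.63 and 8.52 at 96 h, against 9.11, 9.09, 9.24, 9.15, 8.92 and 9.01 at 0 h. The later groups did not overlap the 0 h arrays at any time. Its change was -0.39 ± 0.09 at 6 h (limma adjusted p = 0.000463), -0.77 ± 0.09 at 24 h (limma adjusted p = 4.83e-09) and -0.61 ± 0.09 at 96 h (limma adjusted p = 4.48e-07), or -0.56 at 96 h without the apart arrays.

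Hsph1, the Hsp110 that exchanges the nucleotide on Hsp70, fell at all 3 times. Signals were 8.94, 9.26 and 9.70 at 6 h, 8.33, 8.59 and 8.84 at 24 h and 8.65, 8.12 and 8.26 at 96 h, against 9.76, 9.82, 10.08, 9.71, 9.71 and 9.35 at 0 h. The groups overlapped at 6 h and not at 24 or 96 h. Its change was -0.40 ± 0.15 at 6 h (limma adjusted p = 0.0467), -1.06 ± 0.15 at 24 h (limma adjusted p = 7.19e-07) and -1.36 ± 0.15 at 96 h (limma adjusted p = 6.97e-09), or -1.64 at 96 h without the apart arrays. The 6 h call was lost without the harvest term (-0.44) and without any of replicates 1, 2, 3 or 4 at 0 h, or replicates 1 or 2 at 6 h (values between -0.41 and -0.32).

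Hsp90aa1, the inducible Hsp90 that holds kinases and steroid receptors, was lower at all 3 times. It measured 11.41, 11.62 and 11.78 at 6 h, 11.16, 11.48 and 11.40 at 24 h and 11.49, 11.41 and 11.39 at 96 h, against 11.81, 11.84, 12.05, 11.98, 11.88 and 11.78 at 0 h. The 24 and 96 h arrays lay below all 0 h arrays, and the highest 6 h array lay 0.0011 below the lowest 0 h array. The change was -0.25 ± 0.08 (limma adjusted p = 0.0221), -0.50 ± 0.08 (limma adjusted p = 7.45e-06) and -0.42 ± 0.08 (limma adjusted p = 0.000119) at 6, 24 and 96 h, and -0.53 at 96 h without the apart arrays. The 6 h call was lost without 0 h replicate 1 or 3 or 6 h replicate 1 or 2, at values between -0.22 and -0.21.

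Bag3, which couples Hsp70 to small heat shock proteins and autophagy, showed no call at 6 h (-0.16 ± 0.14, limma adjusted p = 0.475). Its signals were 9.94, 9.76 and 9.78 at 24 h and 10.37, 9.56 and 9.83 at 96 h, against 10.58, 10.36, 10.44, 10.20, 10.32 and 10.20 at 0 h. The 24 h arrays lay below all 0 h arrays, while replicate 1 at 96 h, which is the array that stood apart, lay within them. The change was -0.57 ± 0.14 at 24 h (limma adjusted p = 0.00166) and -0.49 ± 0.14 at 96 h (limma adjusted p = 0.0072). With the 2 apart arrays left out, the 96 h change was -0.69. The 96 h call was lost without replicate 2 (-0.34) or replicate 3 (-0.42) of unstretched isotropic tissue at 96 h.

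Hspb1, the small heat shock protein Hsp27, is listed as inducible and did not follow the others. It measured 11.85, 12.04 and 11.85 at 24 h and 11.97, 11.44 and 11.42 at 96 h, against 12.05, 11.77, 11.90, 11.85, 11.96 and 12.04 at 0 h. The 24 h arrays sat inside the 0 h range, and at 96 h replicates 2 and 3 lay below it while the apart replicate 1 did not. The change was -0.02 at 24 h (limma adjusted p = 0.907) and -0.29 at 96 h (limma adjusted p = 0.0507). Without the 2 apart arrays the 96 h change was -0.47 (limma adjusted p = 3.83e-06).

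Among the constitutive members, Hspb7 passed the test at 24 and 96 h. It measured 11.21, 11.44 and 11.23 at 24 h and 11.65, 11.06 and 11.04 at 96 h, against 11.68, 11.53, 11.50, 11.57, 11.49 and 11.64 at 0 h. The 24 h arrays lay below all of the 0 h arrays, and at 96 h the apart replicate 1 lay among them. The change was -0.33 ± 0.12 at 24 h (limma adjusted p = 0.0219) and -0.34 ± 0.12 at 96 h (limma adjusted p = 0.0202). The 24 h call was lost without the harvest term (-0.28) and without 24 h replicate 1 (-0.27) or 3 (-0.29). The 96 h call was lost without 96 h replicate 2 (-0.23) or 3 (-0.26), and without the 2 apart arrays the change was -0.52.

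Hspa8 and Cryab passed no test against 0 h over all arrays. Hspa8 measured 12.93, 12.85 and 12.94 at 96 h, against 12.97, 13.00, 13.06, 13.08, 13.01 and 13.04 at 0 h. The 3 arrays at 96 h lay below all 6 at 0 h. Its change was 0.09 at 6 h (limma adjusted p = 0.122), -0.04 at 24 h (limma adjusted p = 0.551) and -0.10 at 96 h (limma adjusted p = 0.0788), and -0.15 at 96 h (limma adjusted p = 0.0138) without the 2 apart arrays. Its signal lay near the highest on any array, 13.56, where the scale has little room above it. The gene has 9 probe sets, and their plain mean differences at 96 h ran from -0.21 to -0.12, all in the same direction. The probe set used here gave -0.12, near the small end of that range. Cryab measured 12.98, 12.47 and 12.52 at 96 h, against 12.61, 12.53, 12.50, 12.57, 12.61 and 12.64 at 0 h. Its change was 0.04, 0.03 and 0.10 at the 3 times, none past the test, and -0.06 at 96 h without the apart arrays. With those arrays left out, 4, 6 and 8 members were lower at 6, 24 and 96 h, beside 34.6%, 39.9% and 37.9% of all genes called, Hspb1 and Hspa8 being the ones added at 96 h.

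**Figure D2:**
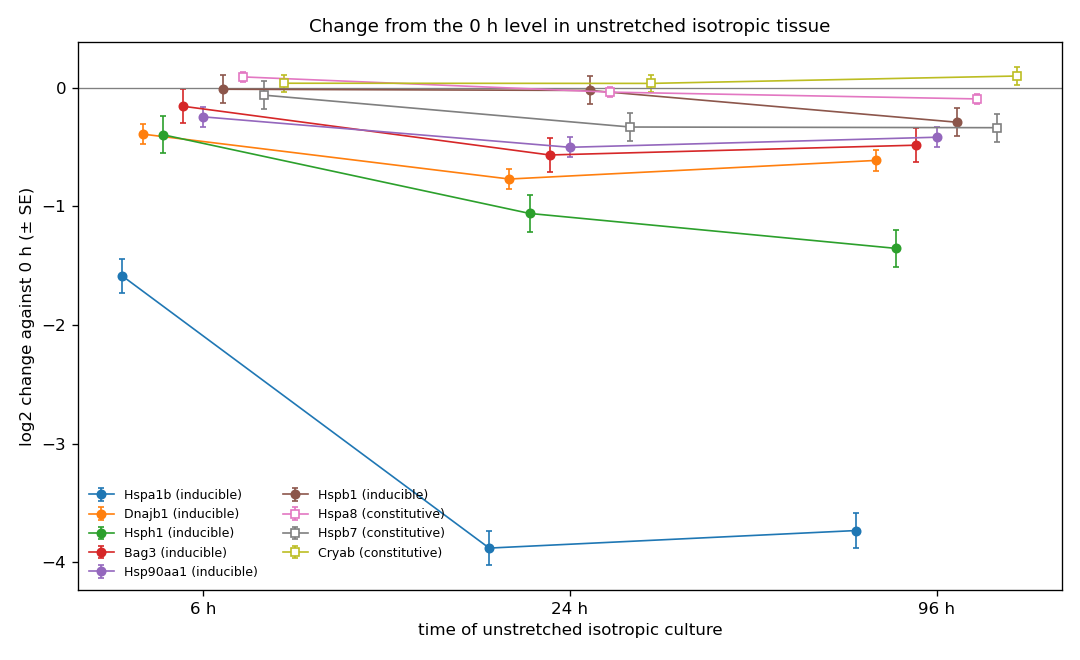
Change in RMA signal against 0 h (log2, vertical axis, with the SE from limma) at 6, 24 and 96 h in unstretched isotropic tissue, over all 51 arrays as labelled. Filled circles are inducible and open squares constitutive members, and the times are evenly spaced and not to scale. Hspa1b lies at -1.59, -3.88 and -3.73, below all other members at each time, and Cryab lies between 0.03 and 0.10.

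Markers of other cells moved over the same times. All 3 measured endothelial markers were lower at 6, 24 and 96 h (median -1.28, -3.19 and -3.70), their mean signal being 5.41 to 5.74 at 24 h and 4.93 to 5.25 at 96 h, against 8.45 to 9.07 at 0 h. Of the 6 fibroblast markers, 6, 1 and 3 were lower at the 3 times, and 1 was higher at 24 h. Of the 7 macrophage markers, 3, 0 and 2 were lower, and 1 was higher at 96 h. Of the 4 measured smooth muscle and pericyte markers, 3, 1 and 1 were lower, and 1 was higher at 96 h. Of the 2 measured erythroid markers, 1 was lower at 6 h and both at 24 and 96 h. Of 8 cardiomyocyte markers, 1, 7 and 6 were lower, by a median of -0.09, -0.37 and -0.31. The counts at 96 h without the apart arrays were 2 fibroblast markers lower and 2 higher, 2 macrophage markers lower and 2 higher, and 4 cardiomyocyte markers lower. The part of these shifts in the fall of Hspa1b and its partners was not tested. In such bulk samples, fewer cells of a type and less RNA per cell cannot be told apart.

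Steps between successive times showed when the members moved. From 6 to 24 h, 3 members were lower in unstretched isotropic tissue, where 13.7% of all genes were called and 7.79% lower: Hspa1b (-2.29 ± 0.16, limma adjusted p = 4.72e-12), Hsph1 (-0.66 ± 0.18, limma adjusted p = 0.00882) and Dnajb1 (-0.38 ± 0.10, limma adjusted p = 0.00777). The same 3 were lower in unstretched anisotropic tissue (13.5% of all genes called, 6.44% lower), by -2.12 ± 0.16 for Hspa1b (limma adjusted p = 4.4e-11), -0.58 ± 0.18 for Hsph1 (limma adjusted p = 0.0238) and -0.38 ± 0.10 for Dnajb1 (limma adjusted p = 0.00717). Hspa1b measured 7.87, 8.09 and 8.34 at 24 h in anisotropic tissue, against 9.95, 10.33 and 10.53 at 6 h, with no overlap. The Hsph1 and Dnajb1 calls in isotropic tissue were lost without 6 h replicate 3 (-0.57 and -0.31). In anisotropic tissue Dnajb1 was lost without 24 h replicate 2 (-0.34). Hsph1 was lost there without the harvest term (-0.60), without replicate 1 or 3 at 6 h, and without replicate 1 or 2 at 24 h (-0.56 to -0.52). With the 2 apart arrays left out, Bag3 (-0.39) and Hsp90aa1 (-0.24) were also lower in isotropic tissue and Hsp90aa1 (-0.23) in anisotropic tissue. In that fit 17.9% of all genes were called in isotropic tissue (1910 genes lower) and 17.7% in anisotropic tissue (1626 lower).

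From 24 to 96 h, no member passed the test in unstretched isotropic tissue, where 4.63% of all genes did and 3346 genes had an unadjusted p under 0.05. With the apart arrays left out, Hsph1 (-0.59, limma adjusted p = 0.00462) and Hspb1 (-0.46, limma adjusted p = 0.000166) were lower. Of all genes, 17.4% were called in that fit (1597 genes lower). In unstretched anisotropic tissue, which holds neither of those arrays, 3 members were lower, beside 14.3% of all genes called and 7.74% lower. Hsph1 measured 7.83, 8.14 and 8.13 at 96 h, against 8.47, 8.68 and 8.85 at 24 h (-0.69 ± 0.18, limma adjusted p = 0.00672). Hspb1 measured 11.41, 11.31 and 11.15 at 96 h, against 11.88, 11.94 and 11.89 at 24 h (-0.59 ± 0.14, limma adjusted p = 0.00307). Neither overlapped between the times. Hspb7 measured 11.11, 10.75 and 10.91 at 96 h, against 11.48, 11.30 and 11.23 at 24 h (-0.38 ± 0.13, limma adjusted p = 0.0499). It also did not overlap, but its call was lost without the harvest term (-0.41) and with quantile scaling repeated (-0.35). Leaving out any of 5 of the 6 arrays, all but 24 h replicate 3, lost it too (-0.45 to -0.28). The Hspb7 call was also lost when each gene took its probe set of largest variance. Hspb7 has only 1 probe set, so its own signals were the same in that setting. Hspa1b and Dnajb1 thus reached their low level by 24 h, with changes of -0.27 and 0.20 from 24 to 96 h that were not called, while Hsph1 and Hspb1 were lower at 96 h than at 24 h. Without the apart arrays, which enter the harvest term and the spread, Bag3 (-0.44), Hsp90aa1 (-0.22) and Hspa8 (-0.14) were also lower in unstretched anisotropic tissue. In that fit 21.1% of all genes were called there (2177 genes lower).

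Markers of other cells moved over these steps too. At 24 h against 6 h, 4 fibroblast and 4 macrophage markers were higher in isotropic tissue (median 1.03 and 0.61), and 2 and 3 in anisotropic tissue (0.88 and 0.40). All 3 endothelial markers and 3 cardiomyocyte markers were lower in both layouts. At 96 h against 24 h, 2 endothelial markers were lower and 2 cardiomyocyte markers higher in both layouts. Over that step 1 fibroblast and 1 macrophage marker were lower in isotropic tissue, and 1 smooth muscle and pericyte marker was higher. In anisotropic tissue 2 fibroblast, 3 macrophage and 2 smooth muscle and pericyte markers were higher. Both erythroid markers were lower in both layouts. In isotropic tissue without the apart arrays, 2 fibroblast, 2 macrophage and 2 smooth muscle and pericyte markers were higher over that step. In that fit 1 fibroblast marker was lower. The part of these shifts in the steps of the members was not tested.

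The second question is whether cyclic stretch changed the members. At 6 h none of the 9 passed the test in isotropic tissue (0.00538% of all genes called, 359 genes at an unadjusted p under 0.05), under longitudinal stretch (0.0968%) or under transverse stretch (0 genes called, 575 at an unadjusted p under 0.05), by limma. Hspa1b at 6 h measured 9.78, 10.15 and 10.76 in stretched isotropic tissue, against 9.95, 10.47 and 10.78 in unstretched tissue. Under longitudinal stretch it measured 10.86, 10.21 and 10.71 and under transverse stretch 10.67, 10.32 and 10.49, against 9.95, 10.33 and 10.53 in unstretched anisotropic tissue. All of these groups overlapped. The lowest of the 15 arrays at 6 h, 9.78, lay above the highest of the 15 at 24 h, 8.50.

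At 24 h, too, no member was called in isotropic tissue (3.93% of all genes called, 3011 at an unadjusted p under 0.05), under longitudinal stretch (2.23%, 2424 genes) or under transverse stretch (1.46%, 2548 genes) over all arrays as labelled. Bag3 had the largest difference among the members in each of the 3 comparisons. It measured 9.71, 10.50 and 10.26 in stretched isotropic tissue, against 9.94, 9.76 and 9.78 in unstretched tissue, and the apart replicate 1 was the lowest of the 6. Under longitudinal stretch it measured 10.32, 10.43 and 10.09 and under transverse stretch 10.51, 10.48 and 10.12, against 10.15, 10.00 and 9.84 without stretch. The difference was 0.33 ± 0.16 in isotropic tissue (limma adjusted p = 0.304), 0.33 under longitudinal stretch (limma adjusted p = 0.389) and 0.47 ± 0.17 under transverse stretch (limma adjusted p = 0.184). With the 2 apart arrays left out it was 0.61 ± 0.13 in isotropic tissue (limma adjusted p = 0.00302) and 0.48 ± 0.13 under transverse stretch (limma adjusted p = 0.026).

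More members passed at 24 h once the 2 apart arrays were left out, 3 in isotropic tissue (6.44% of all genes called), 1 under longitudinal stretch (4.61%) and 1 under transverse stretch (3.72%). In that fit Hspb7 (0.38 ± 0.12, limma adjusted p = 0.0385) and Cryab (0.24 ± 0.07, limma adjusted p = 0.0245) were higher in stretched isotropic tissue, and Hspb1 was higher under longitudinal stretch (0.27 ± 0.07, limma adjusted p = 0.0272). Cryab measured 12.64, 12.94 and 12.74 in stretched isotropic tissue, against 12.52, 12.67 and 12.64 in unstretched tissue. Hspb1 measured 12.11, 12.23 and 12.14 under longitudinal stretch, against 11.88, 11.94 and 11.89 in unstretched anisotropic tissue, without overlap, the highest group of the 16. In stretched isotropic tissue, replicate 1 of Hspb1 measured 11.30 while replicates 2 and 3 measured 12.17 and 12.09. Hspb1 measured 12.05, 11.95 and 12.16 under transverse stretch at 24 h.

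At 96 h the layouts gave different counts. In isotropic tissue no member was called, with or without the apart arrays, while 2.94% of all genes were called and 2619 had an unadjusted p under 0.05. In the fit without the apart arrays, whose unstretched isotropic group lacks replicate 1, 5.98% of all genes were called. Under longitudinal stretch 2 members were higher, Hspa1b and Hspb7, beside 9.70% of all genes called and 4.31% higher. Under transverse stretch 4 members were higher, Hspa1b, Hspb7, Bag3 and Cryab, beside 15.0% of all genes called and 6.39% higher. No member was lower. Both directions share the same 3 unstretched arrays, which were the lowest of the 16 groups for 8 of the 9 members. The median change of the 9 members was 0.25 under longitudinal and 0.28 under transverse stretch, against 0.01 and 0.02 for all genes.

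Hspb7, the filamin-binding small heat shock protein, gave the clearest difference. It measured 11.35, 11.48 and 11.40 under longitudinal stretch and 11.37, 11.32 and 11.73 under transverse stretch, against 11.11, 10.75 and 10.91 in unstretched anisotropic tissue. Neither stretched group overlapped the unstretched one. The difference was 0.52 ± 0.14 under longitudinal stretch (limma adjusted p = 0.0136) and 0.52 ± 0.13 under transverse stretch (limma adjusted p = 0.00622), a signal 1.44-fold and 1.43-fold higher. Longitudinally stretched and unstretched arrays share only 1 harvest, in which the difference was 0.24. Transversely stretched and unstretched arrays share 2, in which it was 0.26 and 0.57. The longitudinal call was lost without unstretched replicate 2 (0.43) or longitudinal replicate 2 (0.37), and the transverse call without unstretched replicate 2 (0.42) or transverse replicate 3 (0.38).

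Hspa1b, though far below its 0 h level, was higher under stretch. It measured 8.27, 8.60 and 8.55 under longitudinal stretch and 8.02, 8.75 and 8.30 under transverse stretch, against 7.92, 8.18 and 7.71 in unstretched tissue. The longitudinal arrays lay above all unstretched ones, and the transverse arrays overlapped them. The difference was 0.62 ± 0.17 under longitudinal stretch (limma adjusted p = 0.0181) and 0.53 ± 0.16 under transverse stretch (limma adjusted p = 0.0251). Within harvests it was 0.35 in the 1 harvest shared by longitudinal and unstretched arrays, and 0.11 and 0.57 in the 2 shared by transverse and unstretched arrays. The longitudinal call was lost without the harvest term (0.54), without unstretched replicate 3 (0.38), and without longitudinal replicate 2 (0.63) or 3 (0.60). The transverse call was lost without the harvest term (0.42), with harvest as a random block (0.49), and without unstretched replicate 3 (0.30) or transverse replicate 2 (0.39). The second Hspa1b probe set gave smaller plain mean differences in the same direction. They were 0.26 under longitudinal and 0.31 under transverse stretch, against 0.54 and 0.42 for the probe set used. The size of the stretch difference thus depended on the probe set.

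Bag3 was called under transverse stretch and not under longitudinal stretch, and the difference between the directions was not called. It measured 9.95, 9.84 and 9.78 under longitudinal stretch and 10.13, 9.73 and 10.43 under transverse stretch, against 9.77, 9.26 and 9.77 in unstretched tissue. The transverse arrays overlapped the unstretched ones. The difference was 0.34 (limma adjusted p = 0.251) under longitudinal and 0.51 ± 0.16 (limma adjusted p = 0.0316) under transverse stretch. Within the shared harvests the transverse difference was 0.36 and 0.47. The transverse call was lost without the harvest term (0.50), without unstretched replicate 2 (0.37), and without transverse replicate 1 (0.54) or 3 (0.34).

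Cryab, which binds desmin and titin in heart muscle, moved least among the called members. It measured 12.57, 12.65 and 12.68 under longitudinal stretch and 12.64, 12.62 and 12.76 under transverse stretch, against 12.43, 12.39 and 12.30 in unstretched tissue, with no overlap. The difference was 0.21 under longitudinal stretch (limma adjusted p = 0.139) and 0.28 ± 0.08 under transverse stretch (limma adjusted p = 0.017). It was 0.14 in the 1 harvest shared by longitudinal and unstretched arrays, and 0.21 and 0.23 in the 2 shared by transverse and unstretched arrays. The transverse call was lost without unstretched replicate 3 (0.28) or transverse replicate 3 (0.22).

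At 96 h 5 members were called in neither direction of stretch. Hsp90aa1 differed by 0.25 under both longitudinal (limma adjusted p = 0.132) and transverse stretch (limma adjusted p = 0.0746), Hsph1 by 0.32 (limma adjusted p = 0.323) and 0.34 (limma adjusted p = 0.202), and Hspb1 by 0.19 (limma adjusted p = 0.482) and 0.26 (limma adjusted p = 0.204). Hspb1 measured 11.53, 11.55 and 11.46 under longitudinal stretch and 11.56, 11.56 and 11.63 under transverse stretch, above all 3 unstretched arrays. Hspa8 differed by 0.03 and 0.08, and Dnajb1 by -0.00 and -0.02 (limma adjusted p = 0.997 and 0.91). Dnajb1 measured 8.30, 8.41 and 8.53 under longitudinal stretch and 8.23, 8.43 and 8.58 under transverse stretch, against 8.45, 8.45 and 8.49 in unstretched tissue, and both groups overlapped it. With the 2 apart arrays left out, Hsp90aa1 (0.25) and Cryab (0.22) were also higher under longitudinal stretch, making 4 members beside 14.8% of all genes called. Under transverse stretch Hsph1 (0.37), Hsp90aa1 (0.26) and Hspb1 (0.29) were added, making 7 members, beside 19.8% of all genes called in that fit.

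In isotropic tissue at 96 h, the apart array is among the unstretched replicates. Bag3 measured 10.12, 9.78 and 9.80 in stretched tissue, against 10.37, 9.56 and 9.83 in unstretched tissue. Hspb7 measured 11.41, 11.39 and 11.33 in stretched tissue, against 11.65, 11.06 and 11.04 in unstretched tissue. In both genes the apart replicate 1 was the highest of the 6 arrays and the other unstretched replicates included the lowest. Hspa1b measured 8.11, 8.60 and 8.61 in stretched tissue, against 8.09, 8.27 and 8.41 in unstretched tissue.

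**Figure D3:**
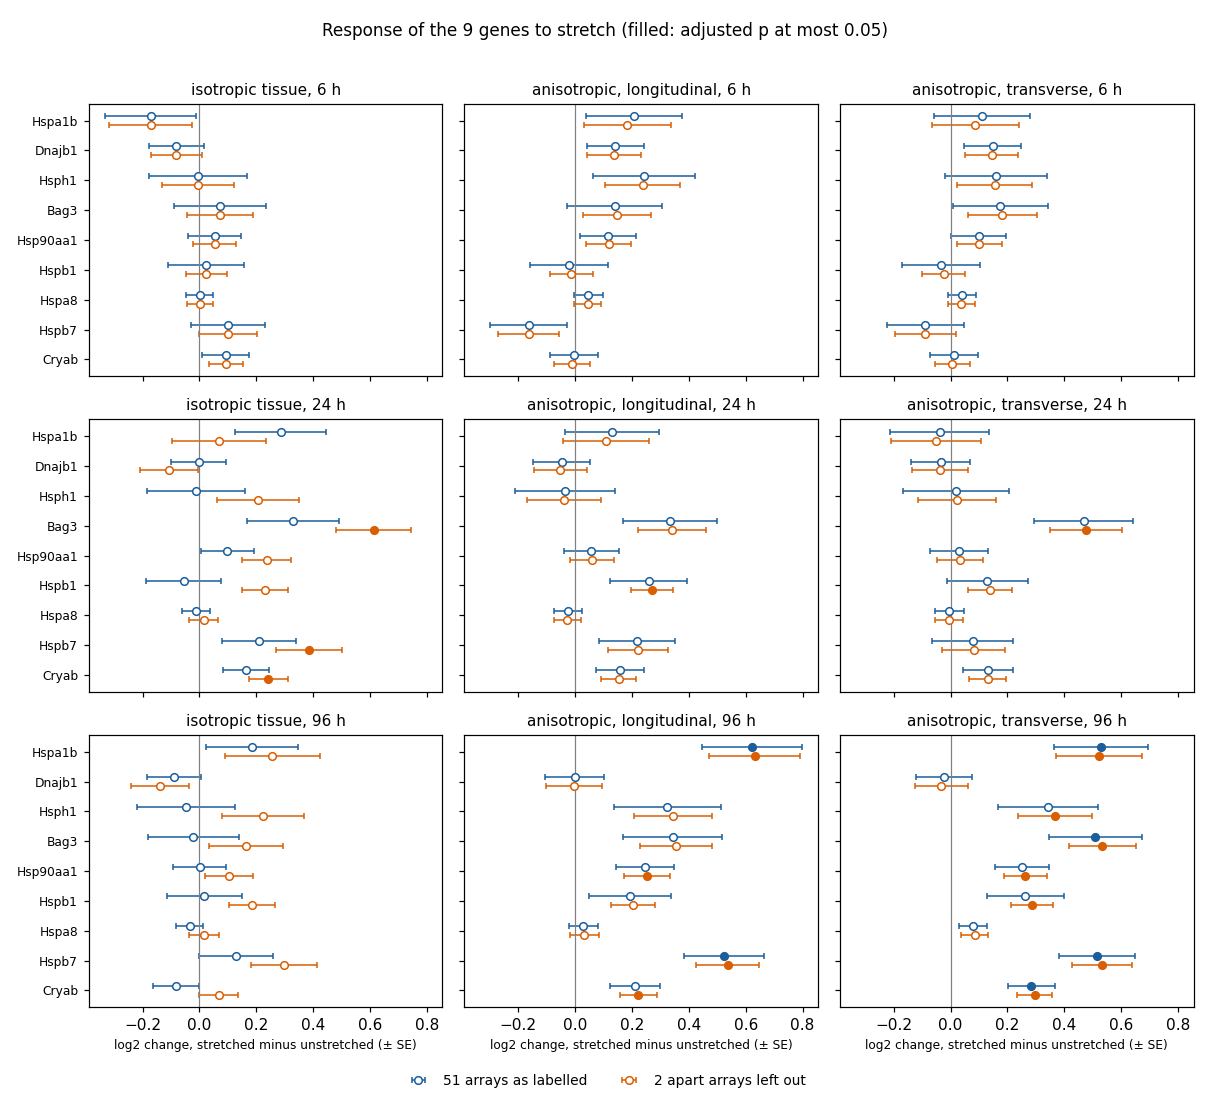
Difference in RMA signal between stretched and unstretched tissue (log2, with the SE from limma) for each member at 6, 24 and 96 h, in isotropic tissue, under longitudinal stretch and under transverse stretch. The 2 series are all 51 arrays as labelled and the fit without the 2 apart arrays, and a filled marker has an adjusted p of at most 0.05. No marker is filled at 6 h, and at 96 h Hspb7 is filled at 0.52 under both longitudinal and transverse stretch.

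Markers of other cells also differed with stretch. At 24 h, 4 of 6 fibroblast markers were lower in stretched isotropic tissue, 3 under longitudinal and 2 under transverse stretch (median -1.41, -1.25 and -1.15). Of 7 macrophage markers, 3, 2 and 0 were lower in these comparisons. Of 8 cardiomyocyte markers, 3 were lower in isotropic tissue and none under longitudinal or transverse stretch. The 24 h counts without the apart arrays were 5, 4 and 3 fibroblast markers, 4, 3 and 3 macrophage markers and 2, 0 and 0 cardiomyocyte markers lower. At 96 h, under longitudinal and under transverse stretch, 4 of 6 fibroblast markers were lower (median -1.94 and -2.24), as were 7 of 7 macrophage markers (-1.23 and -1.55). The mean fibroblast marker signal was 8.16 to 8.42 under longitudinal and 7.80 to 8.14 under transverse stretch, against 9.85 to 10.30 in unstretched anisotropic tissue. The mean macrophage signal was 5.03 to 5.67 under longitudinal and 5.18 to 5.55 under transverse stretch, against 7.08 to 7.29 in unstretched tissue. The mean cardiomyocyte signal was 11.64 to 11.66 under longitudinal and 11.49 to 11.67 under transverse stretch, against 11.35 to 11.88 in unstretched tissue. Of the 8 cardiomyocyte markers, 2 were lower under longitudinal stretch, and 2 were lower and 1 higher under transverse stretch. In isotropic tissue at 96 h, 2 fibroblast and 5 macrophage markers were lower, or 4 and 7 without the apart arrays. The part of these shifts in the differences of the members was not tested.

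The direction of stretch made no called difference for any member. Transverse against longitudinal stretch gave 0 of 9 members at 6 h (0.0215% of all genes called), at 24 h (0 genes called, 1458 at an unadjusted p under 0.05) and at 96 h (0 genes called, 1061 at an unadjusted p under 0.05), by limma. At 96 h the 95% interval of the difference was -0.29 to 0.28 for Hspb7, -0.45 to 0.26 for Hspa1b and -0.19 to 0.52 for Bag3, so differences of that size between directions could not be told from 0 with 3 arrays a group. The layout of unstretched tissue also gave 0 members at 6 h (0 genes called, 246 at an unadjusted p under 0.05), 24 h (0 genes called, 582) and 96 h (0.0161% called). At 96 h anisotropic minus isotropic was -0.28 ± 0.08 for Cryab (limma adjusted p = 0.217) and -0.33 for Hspb7, and -0.13 and -0.16 without the apart arrays.

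Whether the stretch response itself differed was tested as an interaction. Between isotropic tissue and the mean of the anisotropic directions, 0 members passed at 6 h (0.00538% of all genes called), 24 h (0 genes called, 697 at an unadjusted p under 0.05) and 96 h (0 genes called, 1554), by limma. Calls in anisotropic tissue at 96 h and their absence in isotropic tissue are therefore not shown to differ. Between 96 and 6 h, the response to longitudinal stretch differed for Hspb7 (0.69 ± 0.19, limma adjusted p = 0.0462), beside 2.76% of all genes called and 1.23% higher. Hspb7 at 6 h measured 11.38, 11.47 and 11.08 under longitudinal stretch, against 11.75, 11.56 and 11.22 in unstretched tissue, so the difference pointed down at 6 h and up at 96 h. No member passed for transverse stretch (4.46% of all genes called; Hspb7 0.60, limma adjusted p = 0.0604) or in isotropic tissue (0.145%). Without the apart arrays, Hspb7 was called for longitudinal (0.70, limma adjusted p = 0.00387) and transverse stretch (0.62, limma adjusted p = 0.00625), and Cryab for transverse stretch (0.29, limma adjusted p = 0.0334). In that fit 6.21% of all genes were called for longitudinal stretch (500 genes higher) and 8.36% for transverse stretch (531 higher).

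The members stand in a larger chaperone network, for which 82 other genes were listed by role and 75 were measured. The list, like the members, was chosen with earlier results of these data known. Its counts beside those of all genes are a description and not a test of the list. Against 0 h in unstretched isotropic tissue, 34 of the 75 were higher and 4 lower at 6 h, 28 higher and 10 lower at 24 h, and 23 higher and 10 lower at 96 h. Of all genes, 19.1%, 20.8% and 21.8% were higher and 12.5%, 16.1% and 16.1% lower at these times. The median change of the 75 was 0.21, 0.15 and 0.07. Without the apart arrays the counts were 37 higher and 9 lower at 6 h, 35 and 10 at 24 h, and 17 and 17 at 96 h. The matching counts for all 18602 genes were 3837 higher and 2600 lower, 4187 and 3233, and 3999 and 3055.

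Chaperones of the endoplasmic reticulum, which fold secreted and membrane proteins, were mostly higher. Of 12 measured, 9, 10 and 9 were higher at 6, 24 and 96 h, or 10, 10 and 9 without the apart arrays. Sdf2l1 was higher by 1.82, 2.19 and 2.20, Hyou1, the Hsp110 of that compartment, by 1.15, 1.39 and 1.27, and Pdia4, a disulfide isomerase, by 0.81, 1.35 and 1.21. Dnajb9 was the exception, lower by -0.65 at 24 h and -0.80 at 96 h. All 8 subunits of the cytosolic chaperonin, which folds actin and tubulin, were higher at 6 h (Cct6a by 0.55, Cct7 by 0.51, Cct4 by 0.46 and Cct8 by 0.39), while 5 were higher at 24 h and 1 at 96 h. In the fit without the apart arrays, 8 were higher at 6 h and 7 at 24 h. At 96 h none was higher in that fit, and 3 were lower: Tcp1 (-0.26), Cct4 (-0.26) and Cct5 (-0.17). In unstretched anisotropic tissue, 7 of the 8 were lower at 96 h than at 24 h (Cct6a by -0.66, Cct4 by -0.48).

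Genes closest to the inducible members in role were mixed. Of 10 other cytosolic J-domain proteins, 2 were lower and 1 higher at 6 h, 4 lower and none higher at 24 h, and 3 lower and 1 higher at 96 h. Dnajb4, a relative of Dnajb1, was lower by -1.02, -1.28 and -1.07 at 6, 24 and 96 h, and Dnaja1, an Hsp40 that works with Hspa8, by -0.39, -0.75 and -1.06. Of 9 Hsp90 genes and cochaperones, 4 were higher at 6 h, among them Chordc1 (0.94), Fkbp5 (0.69) and Ptges3 (0.56). At 96 h Hsp90ab1, the constitutive Hsp90, was lower by -0.32 (-0.49 without the apart arrays). Of 8 other BAG and Hsp70 cochaperones, 3, 3 and 2 were higher and none lower, with Stip1, which links Hsp70 to Hsp90, at 0.55 and Bag2 at 0.47 at 6 h. Among 8 mitochondrial chaperones, Dnaja3 was higher by 0.85, 0.80 and 0.56, while Hspd1, the mitochondrial Hsp60, was lower by -0.22 at 24 h and -0.39 at 96 h. Heat shock factor 1 mRNA (Hsf1) was higher at 6 h (0.61 ± 0.10, limma adjusted p = 1.32e-05) and 24 h (0.26 ± 0.10, limma adjusted p = 0.0398), and Hsf2 was lower at 24 h (-0.73) and 96 h (-0.61). Sqstm1, the autophagy receptor that acts with Bag3, was higher by 0.95 at 6 h and 0.48 at 24 h, and Flnc, the filamin that Bag3 and Hspb7 handle, was lower by -0.54 at 24 h and -0.62 at 96 h (-0.53 and -0.89 without the apart arrays). In that fit, 4 J-domain proteins, 3 Hsp90 genes and cochaperones and 3 mitochondrial chaperones were lower at 96 h, and 5 BAG and Hsp70 cochaperones were higher at 24 h and 1 at 96 h.

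**Figure D4:**
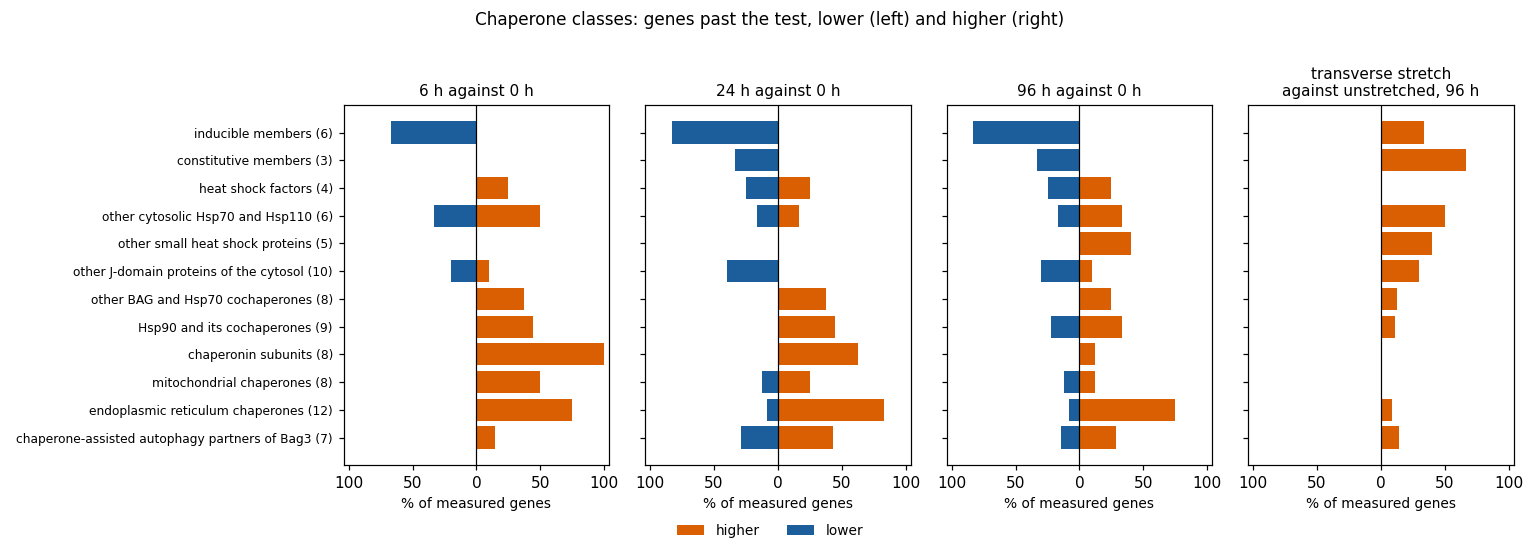
Share of measured genes in each chaperone class (%, horizontal axes, class size in brackets) that were called lower (bars to the left of 0) or higher (bars to the right) at 6, 24 and 96 h against 0 h, and under transverse stretch against unstretched tissue at 96 h. Of the 6 inducible members 4, 5 and 5 were lower at the 3 times, while of 12 endoplasmic reticulum chaperones 9, 10 and 9 were higher.

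Under stretch, the other listed genes that were called were nearly all higher. At 96 h, 12 of 75 were higher and none lower under transverse stretch, and 6 were higher and none lower under longitudinal stretch, beside 6.39% and 4.31% of all genes higher. On leaving out the apart arrays, 15 were higher and none lower under transverse stretch, and 15 higher and 1 lower under longitudinal stretch. Of all genes, 1636 were higher and 2040 lower in that fit under transverse stretch, and 1288 higher and 1469 lower under longitudinal stretch. Hspb3, a muscle small heat shock protein, was higher by 1.09 under transverse and 0.91 under longitudinal stretch, and Hspb2, its partner in a muscle complex, by 0.48 and 0.51. Hspa2 was higher by 0.97 and 0.90, Dnajb4 by 0.80 and 0.70, and Bag2 by 0.64 and 0.66. Flnc (0.67), Dnajb5 (0.80) and Hspa4l (0.79) were called under transverse stretch. In isotropic tissue 1 gene was called at 96 h, Dnajb11 (0.37). At 24 h, Hspa4l (0.94) and Dnaja4 (0.39) were higher and Trap1 lower (-0.29) in isotropic tissue, Hspb3 (0.95) and Dnajb4 (0.50) were higher under longitudinal stretch, and Dnajb4 (0.59) under transverse stretch. Without the apart arrays, 8 and 6 of the 75 were higher in isotropic tissue at 24 and 96 h and none lower. Of all genes, 374 and 361 were higher in those comparisons, and 824 and 751 lower. Over all arrays no heat shock factor was called under stretch at 96 h in anisotropic tissue, Hsf1 differing by 0.22 and 0.27 under longitudinal and transverse stretch (limma adjusted p = 0.315 and 0.126). Hsf1 was higher without the apart arrays, by 0.28 under transverse stretch at 96 h (limma adjusted p = 0.0217) and by 0.33 in stretched isotropic tissue at 24 h (limma adjusted p = 0.0399).

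Over the 16 group means, the members that fell with time resembled each other. The correlation with Hspa1b was 0.95 for Hsp90aa1, 0.93 for Dnajb1, 0.92 for Hsph1 and 0.72 for Hspa8, and lower for Bag3 (0.61), Hspb7 (0.62), Hspb1 (0.34) and Cryab (-0.04). With those 2 arrays left out it was 0.89 for Hsp90aa1, 0.91 for Dnajb1, 0.88 for Hsph1, 0.70 for Hspa8, 0.51 for Bag3, 0.52 for Hspb7, 0.25 for Hspb1 and -0.04 for Cryab. Bag3 and Hspb7 had a correlation of 0.77, and Hspb7 and Cryab of 0.60. These are descriptions over 16 points that share harvests and arrays, and the points at 0 and 6 h carry most of the spread of Hspa1b. Nearest patterns were sought among genes whose SD between groups was at least 0.3, which of the members only Hspa1b and Hsph1 reached. The pattern most like Hspa1b was that of LOC682650 (r = 0.99), followed by Ets1 and Myct1 (both 0.98). For Hsph1 it was RGD1563888 (0.99), then Baz1a and Brd2 (both 0.98), and for Dnajb1 it was St8sia4 and Plat (both 0.96), then Dct (0.95). Bag3 was most like Rnf19b (0.90), Nfkbiz (0.88) and Lipe (0.87), and Hsp90aa1 most like Plk3 (0.96), Ppp1r15a (0.95) and Hspa1b itself. Hspb1 was most like Lrrc2 (0.89), Cpne8 (0.87) and Hba-a2 (0.87). The pattern of Hspb7 was nearest to that of its binding partner Flnc (0.92) and to those of Xirp1 (0.90) and Zswim4 (0.87). Cryab was nearest to Lmcd1 (0.84), Plk2 (0.74) and Epha2 (0.73), and Hspa8 to Ttll4 (0.97), Kdm1 and Psmd3 (both 0.96).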

How the data were processed

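RNA from each tissue was hybridised to Affymetrix arrays, and the authors deposited log2 RMA signals for 29214 probe sets on 51 arrays. Affymetrix Expression Console, RMA and limma are named in the submitters' processing notes, with no versions. The authors' deposited comparison table of log2 changes and p-values was only matched to the nearest group means, whatever the column header. With arrays as labelled, 13 of its 15 columns equalled them, and 15 did with the 2 apart arrays exchanged. Its values are not used. Of the probe sets, 20360 had 1 symbol, giving 18602 genes by highest mean. limma 3.58.1 (R 4.3.3) was fitted to all arrays with a mean per group and a harvest term (30 residual df), with Benjamini-Hochberg adjustment in each of 28 comparisons. Python 3.11.15 and pandas 2.3.3 made the summaries. Harvest, from the labels, pairs the arrays: residuals of same-harvest pairs from different groups had a mean correlation of 0.22 (220 pairs), against -0.05 for other pairs (995). On simulated data for the 96 h isotropic stretch comparison with 18602 genes, 69% of genes changed by 0.5 and 97% of those changed by 1 log2 unit were recovered, with 7.26% false among calls. Alternatives were no harvest term, harvest as a random block, dim genes left out, quantile scaling repeated, the probe set of largest variance, both apart arrays left out, and each array left out in turn. All 9 members and Hsf1 are named, with at most 4 other listed genes per class and comparison, those of largest change past the test, and the 3 genes nearest in pattern among genes with an SD of at least 0.3 between groups. The members and lists were chosen with earlier results of these data known. Promoter sequences came from RefSeq's GRCr8 table, and the build used by the authors' annotation is not given in the sources used here.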

Additional observations from a re-analysis of the deposited data

Results flagged for a closer look

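The response of Hspb7 to longitudinal stretch differed between 96 and 6 h by 0.6874 log2 units (± 0.19 SE, limma adjusted p = 0.0462), as a test of that difference itself in one fit over all arrays. The stretched minus unstretched difference at 96 h was 0.52, and at 6 h the arrays measured 11.38, 11.47 and 11.08 under longitudinal stretch, against 11.75, 11.56 and 11.22 in unstretched tissue. The call was lost without the harvest term (0.68) and on leaving out any 1 of 9 of the 12 arrays, with values between 0.53 and 0.73 in those cases. At 0 h, the only group with over 3 arrays, no array of any member lay apart by Dixon's criterion, which chance passes for about 1 in 20 groups.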

How the results depend on the processing

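Of the 32 member calls, none changed direction under any of 6 alternatives or with an array left out. Counts of members called that moved by more than 1.5 times were as follows. Without the harvest term as a replicate block, transverse stretch at 96 h gave 2 members (4 with it) and the longitudinal 96 h against 6 h interaction 0 (1 with it). The transverse 96 h against 6 h interaction gave 0 in the main analysis, and 1 each with harvest as a random replicate block, with dim genes left out and with quantile scaling repeated. With both apart arrays left out, stretch gave 3 members in isotropic tissue at 24 h, 1 each under longitudinal and transverse stretch at 24 h, and 4 and 7 at 96 h. Steps in time then gave 5 (isotropic, 24 against 6 h), 2 (isotropic, 96 against 24 h) and 6 (anisotropic, 96 against 24 h), and the transverse interaction 2. The shares of all genes called in that fit were 17.9%, 17.4%, 21.1% and 8.36%, in the same order. Smaller moves in that fit were 8 members (6 over all arrays) for 96 h against 0 h and 4 (3) for anisotropic 24 against 6 h. The shares of all genes called there were 37.9% and 17.7%. Calls of single members lost without the replicate block were Hspa1b under both stretch directions at 96 h, Bag3 under transverse stretch at 96 h, Hsph1 at 6 h and Hspb7 at 24 h against 0 h, Hsph1 at 24 against 6 h and Hspb7 at 96 against 24 h in anisotropic tissue, and Hspb7 in the longitudinal interaction. Leaving out each array in turn gave 0 to 1 members for isotropic stretch at 24 h, 0 to 3 for longitudinal and 1 to 4 for transverse stretch at 96 h, 2 to 4 for 6 h against 0 h, and 1 to 3 for 24 against 6 h in both layouts. It gave 0 to 2 for isotropic 96 against 24 h, and 0 to 1 for both 96 h against 6 h anisotropic interactions and for layout at 96 h.

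Of the 75 other listed genes, isotropic stretch at 24 h called 3, which became 0 without the replicate block, 1 with the random block, 8 without the apart arrays and 0 to 5 with an array left out. At 96 h it called 1 (0 without the block, 6 without the apart arrays, 0 to 5). Longitudinal stretch called 2 at 24 h (5 with dim genes left out, 7 without the apart arrays, 0 to 2) and 6 at 96 h (10 with the random block, 16 without the apart arrays, 2 to 10). Transverse stretch called 1 at 24 h (2 with dim genes left out, 2 without the apart arrays, 0 to 6) and 12 at 96 h (7 without the block, 15 without the apart arrays, 4 to 14). Anisotropic tissue at 96 against 24 h called 27 (38 without the apart arrays, 9 to 28). Of all genes, isotropic stretch called 3.93% at 24 h and 2.94% at 96 h (6.44% and 5.98% without the apart arrays). Longitudinal stretch called 2.23% and 9.70% (4.61% and 14.8%), and transverse stretch 1.46% and 15.0% (3.72% and 19.8%). Anisotropic tissue at 96 against 24 h called 14.3% of all genes (21.1%). The cause of the moves between settings was not tested. The number of arrays, 3 in most groups, limits the precision, and RMA gives no detection limit.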
